A study of Homo sapiens with 4 samples.

Results

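H3K27ac peaks at divergent protein-coding promoters of HAP1 cells were chosen by their position and width in the list of peaks called against rabbit IgG. A peak was taken when it was under 3000 bp wide and its summit lay within 1 kb of the 5′ ends of 2 protein-coding genes on opposite strands that point away from each other, with 5′ ends at most 1 kb apart. This gave 1063 of the 87087 H3K27ac peaks (1.22%). Wild-type HAP1, an adherent near-haploid line derived from the leukemia line KBM-7, was profiled by ChIP-seq in 4 libraries, 1 each for MYC, H3K27ac, normal rabbit IgG (rIgG) and Input. H3K27ac peaks were called against rIgG and the 1723 MYC peaks against Input, both on hg19. Each antibody had 1 library, so no difference was tested. Intervals are 95%, exact Clopper-Pearson for shares and from order statistics for medians, and cover counting error over the peaks of these libraries only. Of 12 genes that mark blood cells, 1 (SPI1) had an H3K27ac summit within 1 kb of its 5′ end, with a fold enrichment of 5.00. Of 6 genes that every cell uses, 5 had one. The exception was EEF1A1, which had a peak with a fold enrichment of 17.1 within 1 kb of the 5′ end of its canonical transcript.

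A divergent, or bidirectional, promoter lies between a pair of genes that are transcribed away from each other from neighbouring start sites. Such promoters are usually CpG islands without a TATA box, and each start site assembles its own preinitiation complex within a shared nucleosome-depleted region. Many of them serve housekeeping genes of DNA repair, mitochondria and RNA processing, and the histone genes are arranged in the same way. H3K27ac, acetylation of lysine 27 of histone H3, sits on nucleosomes that flank active start sites. It is deposited mainly by the acetyltransferases p300 and CBP, and its signal dips where nucleosomes are missing. MYC binds DNA as a dimer with MAX, with highest affinity at the E-box CACGTG, and occupies promoters of genes for ribosomes and cell growth.

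The sequence between the 5′ ends, called the gap here, was read from the plus strand of GRCh37 with both 5′ ends included, and the minus-strand gene is named first. Capitals mark exact matches on either strand to the E-box letters CACGTG, to CCGGAAG, the core letters of ETS factors, or to GCATGCGC, the letters of NRF1. The first and second lines are the gaps of at most 300 bp with the highest H3K27ac fold enrichment and hold none of these letters. The next 4 lines are the gaps with the highest enrichment that hold ETS letters (APTX/DNAJA1 and TADA3/ARPC4-TTLL3) or NRF1 letters (TMX3/CCDC102B and GTF3C1/KATNIP). These 4 were chosen after their values were seen, as were the last 2 lines. None of the 5 members under the strongest MYC peaks had CACGTG in its gap, and the gap of the strongest, SNX5/MGME1, is shown. ALG3/EEF1AKMT4 and TAF5L/URB2 are gaps that held both a MYC summit and CACGTG.
MYEF2/SLC12A1, chr15:48470550-48470635: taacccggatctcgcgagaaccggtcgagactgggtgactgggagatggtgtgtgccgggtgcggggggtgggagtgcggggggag
GMFG/SAMD4B, chr19:39833012-39833061: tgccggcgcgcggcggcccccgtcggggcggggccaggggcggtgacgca
APTX/DNAJA1, chr9:33025128-33025271: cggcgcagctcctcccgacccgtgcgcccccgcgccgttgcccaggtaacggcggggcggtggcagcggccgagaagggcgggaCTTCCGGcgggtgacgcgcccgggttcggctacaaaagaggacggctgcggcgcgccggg
TADA3/ARPC4-TTLL3, chr3:9834695-9834766: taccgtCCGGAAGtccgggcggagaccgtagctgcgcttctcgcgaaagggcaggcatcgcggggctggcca
TMX3/CCDC102B, chr18:66382345-66382446: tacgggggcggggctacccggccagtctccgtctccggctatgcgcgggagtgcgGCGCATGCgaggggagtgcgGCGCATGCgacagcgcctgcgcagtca
GTF3C1/KATNIP, chr16:27561234-27561454: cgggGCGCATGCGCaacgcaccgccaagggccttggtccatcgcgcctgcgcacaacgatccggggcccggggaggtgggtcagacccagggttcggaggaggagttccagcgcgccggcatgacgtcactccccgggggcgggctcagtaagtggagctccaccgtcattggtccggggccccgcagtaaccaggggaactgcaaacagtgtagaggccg
SNX5/MGME1, chr20:17949623-17949661: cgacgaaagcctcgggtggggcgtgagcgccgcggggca
ALG3/EEF1AKMT4, chr3:183967336-183967460: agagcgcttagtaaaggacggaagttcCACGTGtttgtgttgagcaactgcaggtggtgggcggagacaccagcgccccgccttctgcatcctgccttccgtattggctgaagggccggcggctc
TAF5L/URB2, chr1:229761869-229761994: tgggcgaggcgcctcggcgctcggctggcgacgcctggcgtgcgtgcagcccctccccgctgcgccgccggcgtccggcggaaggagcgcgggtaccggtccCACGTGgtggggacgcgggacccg

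Most divergent pairs carried a member peak. GENCODE held 883 such pairs among 20163 protein-coding genes, at 821 separate places. The gap had a median of 131 bp, with quartiles of 69 and 247 bp. A member lay within reach of 788 pairs (89.2%, 87.0% to 91.2%), and a peak of any width within reach of 806 (91.3%). For comparison, 60.0% of all protein-coding 5′ ends had an H3K27ac summit within 1 kb. H3K27ac summits chose the members, so nothing is read from that difference. Each member was assigned to the pair whose middle was nearest its summit, which gave members to 752 pairs. Of these, 460 had 1 member, 273 had 2 and 19 had 3. Pairs that share a place through overlapping gene models, such as TADA3 with ARPC4-TTLL3, lie within reach of the same peak, and 81 members had more than 1 pair in reach.

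The summits lay inside the genes rather than between them. Only 41 of the 1063 summits (3.86%, 2.78% to 5.20%) fell between the 5′ ends. The others were spread evenly, with 517 (48.6%) over the minus-strand gene and 505 (47.5%) over the plus-strand gene. Those 1022 summits lay a median of 221 bp (213 to 228) into the gene from the nearer 5′ end, and 801 of them (78.4%) were 100 to 400 bp away. This distance is about that of the first nucleosomes downstream of a start site. The share between the 5′ ends depended on which 5′ end was used. With the 5′ end of the canonical transcript, which often lies inside that of the gene model, 7.23% of summits were between. Pairs whose 5′ ends overlap by up to 1 kb, once added, raised the share to 18.8%, counting summits in the overlap as between.

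Counted per length of sequence, summits were densest 100 to 200 bp inside the genes, at 2.50 per kb (2.25 to 2.76), and 200 to 300 bp inside, at 2.09 per kb. The first 100 bp of the genes held 0.280 per kb, and the 100 bp before them 0.221 per kb. Isolated promoters, with no other protein-coding 5′ end within 2 kb, also had their highest density 100 to 200 bp inside the gene, at 2.80 per kb. Their values were above those of divergent pairs in the first 100 bp (0.509 against 0.280 per kb), at 300 to 400 bp (1.18 against 0.827), at 400 to 600 bp (0.549 against 0.407) and at 600 to 800 bp (0.352 against 0.181). Lower divergent values are partly built in, since each isolated 5′ end counted had a peak, while both 5′ ends of a pair were counted even where only 1 had a member. At 100 to 200 bp before the 5′ ends, divergent pairs had the higher value (0.494 against 0.372 per kb). The same held at 300 to 500 bp before them (0.787, from 4 summits, against 0.620), but not at 200 to 300 bp (0.327 against 0.653). The divergent intervals of these bins include the isolated values. Upstream of isolated 5′ ends, where no second coding gene starts, 28.8% of summits were found (27.9% to 29.7% of 11046). Of isolated 5′ ends with a peak, 23.7% (22.8% to 24.6%) had summits on both sides, against 35.2% (31.8% to 38.8%) of divergent pairs.

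**Figure D1:**
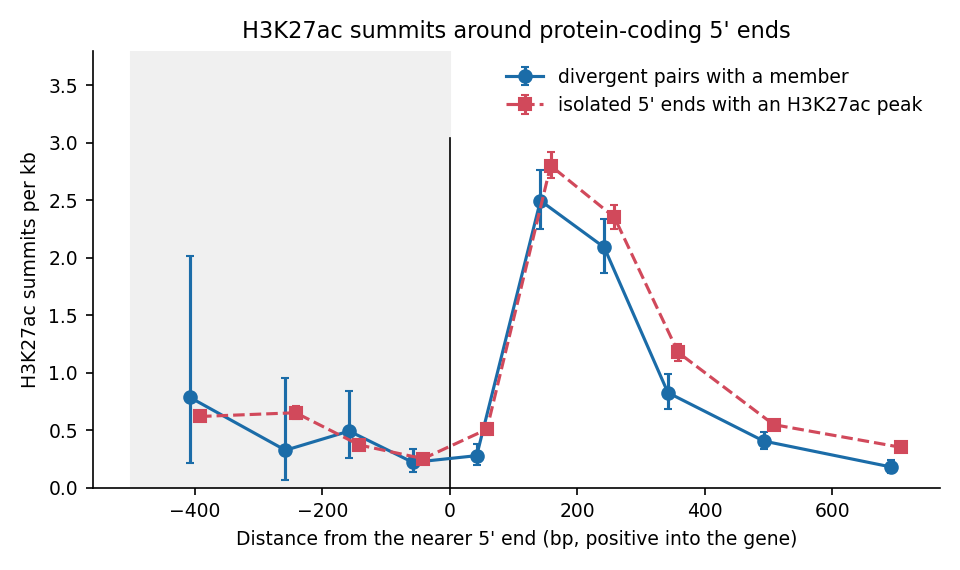
H3K27ac summits per kb of sequence (vertical axis) against distance from the nearer 5′ end in bp (horizontal axis, positive into the gene, grey before it), for divergent pairs with a member and for isolated 5′ ends with a peak. Bars are 95% Poisson intervals. Both curves are low around the 5′ end and highest 100 to 200 bp inside the gene, at 2.50 and 2.80 per kb.

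A larger share of summits fell between the 5′ ends of pairs with wider gaps. None of the 386 members at gaps of up to 100 bp had its summit there (0% to 0.951%). The share was 1.15% with gaps of over 100 and up to 200 bp, 4.29% with over 200 and up to 300 bp, 9.73% with over 300 and up to 500 bp, and 35.2% (22.7% to 49.4%, 19 of 54) with over 500 bp. The rule takes part in this rise, since a summit must lie within 1 kb of both 5′ ends and a wider gap leaves less room outside. Per length, the widest gaps had 0.638 summits per kb between the 5′ ends and 1.43 per kb outside, so that the outside remained denser in every class. Among summits between the 5′ ends, the highest fold enrichment was at TMEM256-PLSCR3/NLGN2 (33.7, gap 777 bp). Next were ARFRP1 and an unnamed partner (29.0, gap 839 bp), SMIM7/TMEM38A (26.5, gap 697 bp), KCTD9/CDCA2 (26.1, gap 723 bp) and IRGQ/SRRM5 (24.7, gap 483 bp). These summits lay near an edge of the gap, 63 to 196 bp from the nearer 5′ end. NLGN2 is a synaptic adhesion molecule, TMEM38A an ion channel of the sarcoplasmic reticulum and CDCA2 a protein of mitotic chromatin. These pairs were chosen after their values were seen. Pairs with gaps over 500 bp were also the least often in reach of a member, at 48 of 76 (63.2%), against 91.3% to 93.5% in the shorter classes. The rule takes part here too, since less sequence inside the genes is then within 1 kb of both 5′ ends.

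**Figure D2:**
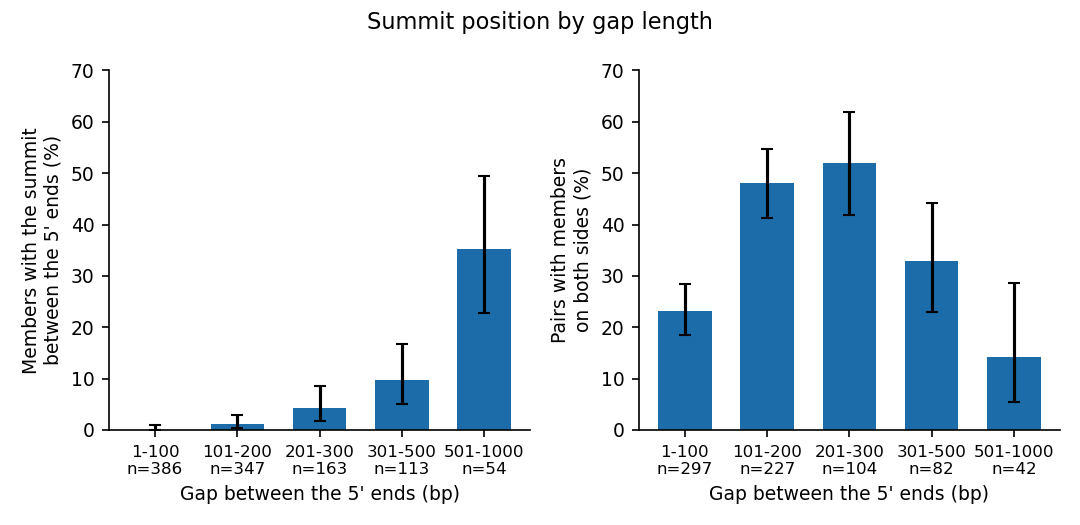
Share of members whose summit lies between the 5′ ends (left) and of pairs with members on both sides (right), in percent, by the gap in bp, with n under each bar and 95% Clopper-Pearson bars. The left panel rises from 0% to 35.2%, while the right is highest, at 51.9%, for gaps of over 200 and up to 300 bp. The limit of 1 kb on summits takes part in the rise on the left and the fall on the right.

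Members on both sides of the gap marked 265 of the 752 pairs. This was the case for 23.2% of pairs with gaps of up to 100 bp, 48.0% with over 100 and up to 200 bp, 51.9% (41.9% to 61.8%) with over 200 and up to 300 bp, and then for 32.9% and 14.3% of the wider classes. The fall at wider gaps is partly built in, since summits must lie within 1 kb of both 5′ ends, which leaves less room outside the gap. The strongest summits of the 2 sides were a median of 703 bp apart (671 to 731, quartiles 579 and 869). The stretch between the edges of these peaks had a median of 175 bp (158 to 183). Such edges depend on the calling threshold, and at some pairs, such as BRCA1/NBR1, another peak lay in the stretch.

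Across the 265 pairs with separate members on the 2 sides, the values of the sides showed no relation (r = −0.06 on the log2 scale, rho = −0.03, 1 library). Pairs marked only by 1 peak across both start sites could not enter. These coefficients therefore do not describe divergent pairs in general. The stronger side had a median of 1.78 times (1.66 to 1.91) the fold enrichment of the weaker, and the ratio was over 2 in 110 pairs (41.5%, 35.5% to 47.7%). Isolated promoters with summits on both sides had a median of 2.34 (2.21 to 2.42, n = 2012) and a ratio over 2 in 56.9%. Such a ratio is at least 1 by construction and grows with the spread of the values, so neither median is read as closeness of the sides. The widest ratio was at PIP4P1/PNP, where the side of PIP4P1, a lipid phosphatase, had a fold enrichment of 52.2 and that of PNP, the purine nucleoside phosphorylase, 3.72. At TBC1D8/CNOT11 the peak over CNOT11, a subunit of the CCR4-NOT deadenylase, had 49.9 and that over TBC1D8 had 6.24. At RECQL/GOLT1B the weaker side was that of the DNA helicase RECQL, with 2.98 against 26.6. RECQL/GOLT1B was chosen after its values were seen.

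**Figure D3:**
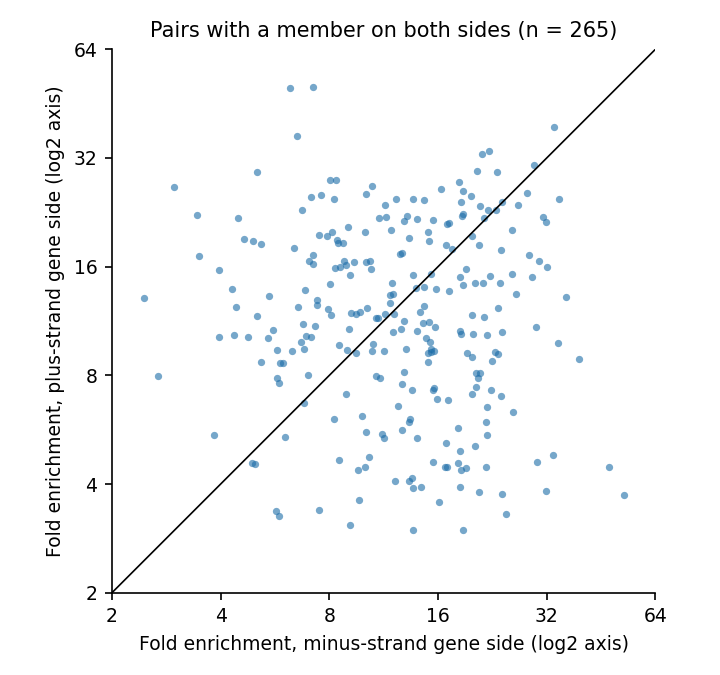
Fold enrichment of the strongest member over the minus-strand gene (horizontal) and over the plus-strand gene (vertical) for the 265 pairs with members on both sides, on log2 axes, 1 point per pair, with the line of equal values. The points fill the plot on both sides of the line, and the median ratio of the stronger to the weaker side is 1.78.

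The gap was wholly under H3K27ac peaks in 367 of the 752 pairs (48.8%), partly in 288 and not at all in 97 (12.9%). Where both sides had a member, the gap was wholly covered in 29 of 265 pairs (10.9%). In the other pairs this was the case in 338 of 487 (69.4%), as a single peak then often ran across both start sites. The middle of the gap was covered least in pairs of intermediate gap. It was under a peak in 73.4% of 297 pairs with gaps of up to 100 bp, 44.1% of 331 with over 100 and up to 300 bp and 64.5% of 124 with wider gaps. Coverage was highest, at 94.3%, 300 bp from the middle toward the minus-strand gene in the intermediate class, and reached 92.7% at 275 bp toward the plus-strand gene.

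**Figure D4:**
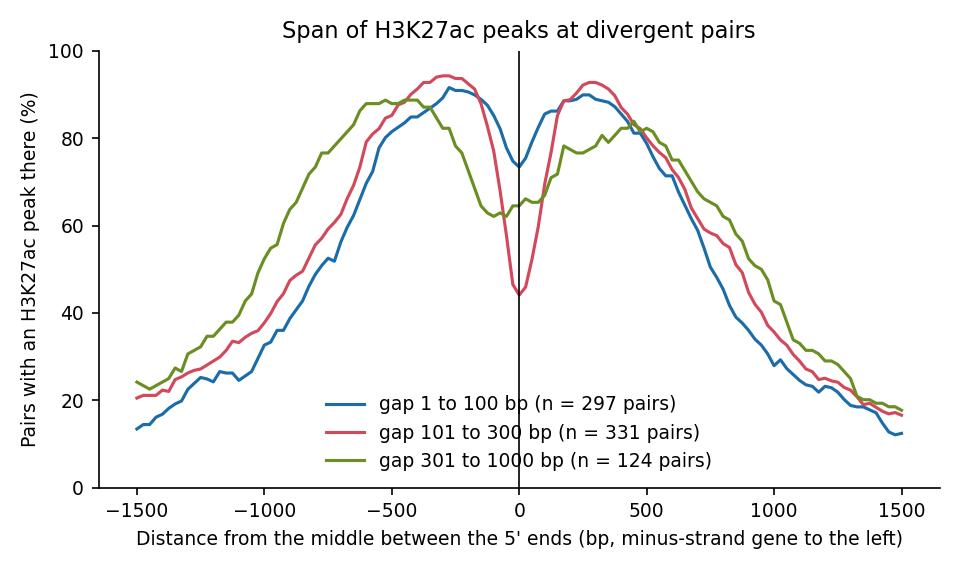
Percent of pairs with an H3K27ac peak (vertical axis) at each distance in bp from the middle of the gap (horizontal axis, minus-strand gene to the left), in 3 classes of gap. A dip lies between maxima in all 3 classes and is deepest, at 44.1% at the middle, for gaps of over 100 and up to 300 bp. For wider gaps it is broad, and its lowest value, 62.1%, lies off the middle, toward the minus-strand gene.

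Fold enrichment of the members had a median of 14.2 (13.6 to 14.8, quartiles 8.98 and 20.7, range 2.46 to 55.6), and their width a median of 910 bp. The rule did not use enrichment as such, but the same contrast called the peaks, so these values are given without a test. Peaks at single promoters, under 3000 bp wide, lay within 1 kb of a protein-coding 5′ end but not of both 5′ ends of a divergent pair. They had a median of 13.7 (13.4 to 13.9, n = 12533). This class also holds peaks near only 1 end of a divergent pair and peaks at pairs whose 5′ ends overlap. Adding the overlapping pairs to the rule raised the members from 1063 to 1568, so the class is not free of divergent promoters. Promoters of lncRNA genes alone had a median fold enrichment of 6.72 (n = 3152), peaks over 1 kb from both kinds of 5′ end 4.95, and all H3K27ac peaks 5.30. Unlike members and single promoters, these groups had no width limit. The strongest peak of a divergent pair had a median of 16.9 (16.1 to 18.0), and that of an isolated promoter 16.7 (16.4 to 17.0). Divergent and single promoters thus had near-equal enrichment, with more peaks of low enrichment among single ones, whose lower quartile was 6.65.

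The highest fold enrichment was 55.6, at chr15:48469886-48470873 (rank 20 among all H3K27ac peaks), 148 bp inside MYEF2, an RNA-binding protein gene, whose partner SLC12A1 encodes the sodium, potassium and chloride cotransporter of the kidney. The peak at chr14:20928828-20929708 by PIP4P1/PNP (52.2) came next. GMFG, an actin regulator gene, and SAMD4B shared a peak at chr19:39832760-39834079 (50.3) with its summit 249 bp inside SAMD4B. TBC1D8/CNOT11 (chr2:101869235-101870447) had 49.9. At ANKIB1, which encodes a ubiquitin ligase of the RBR family, paired with the unnamed gene ENSG00000285953, the peak chr7:91874568-91876265 had 47.7. Each of these 5 summits lay 148 to 249 bp inside a gene. None of the 5 peaks overlapped a MYC peak, which is uninformative for so few, as only 5.93% of all members did. The lowest values were 2.46 at EXTL2/SLC30A7, a glycosyltransferase and a zinc transporter gene with a gap of 897 bp, 2.46 at DHCR7/NADSYN1, of cholesterol and NAD synthesis, and 2.62 at TRPM5/KCNQ1, a pair of ion channel genes.

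The limits of the rule fell among peaks of varied enrichment. The widest members were 2979 bp at BAP1/PHF7 (fold enrichment 20.6) and 2955 bp at HSF2BP/RRP1B (11.9), and the narrowest peaks left out were 3006 bp at DCUN1D2/TMCO3 (21.9) and 3014 bp at KLLN and its partner (18.4). In all, 20 peaks of 3000 bp or more met the rest of the rule. Their median of 21.3 (18.4 to 23.6) was above the 14.2 of the members, so the width limit left out peaks of high enrichment. Among pairs with a member, the widest gaps were at UBQLN4/LAMTOR2 (984 bp, 14.9) and LPXN/ZFP91-CNTF (952 bp), and TXNDC12/BTF3L4 (1008 bp, 16.1) was just outside. PMEL/RAB5B (36.9) and PIGN/RELCH (15.1) had summits 994 and 991 bp from the farther 5′ end, and the peaks at RBIS/CA13 (5.19) and on the MCM4 side of PRKDC/MCM4 (26.5) were 1003 bp away.

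Genes of DNA replication and repair formed the list with the most pairs, 35, of which 31 (88.6%, 73.3% to 96.8%) had a member, near the 89.2% of all pairs. The strongest members of these pairs had a median fold enrichment of 21.8 (15.3 to 24.8, which includes the 16.9 over all pairs). Members on both sides marked 16 of 29 pairs, beside 35.2% of all pairs. No interval was computed for this count, so it is not read as a difference. LIPT2/POLD3, with a subunit of DNA polymerase delta, had 35.3 at chr11:74204197-74204922. PMS2/AIMP2, which joins a mismatch repair gene with one of the tRNA synthetase complex, had 34.6, and XRCC3/ZFYVE21, with a gene of homologous recombination, had 32.8. Cell division genes had a member at 17 of 18 pairs (94.4%, 72.7% to 99.9%, which includes the 89.2% of all pairs). The median of their strongest members was 17.6 (14.9 to 25.6). CENPB/CDC25B, a centromere protein beside a mitotic phosphatase, reached 44.7 at chr20:3766113-3767547, AURKA/CSTF1, with a mitotic kinase, 32.1, and UFD1/CDC45, with a part of the replicative helicase, 28.6.

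Several lists held mitochondrial genes. The interval of each share with a member in this paragraph includes the 89.2% of all pairs. Respiratory chain subunits and assembly factors had a member at 25 of 31 pairs (80.6%, 62.5% to 92.5%), with a median of 17.3. The limits of the rule enter this share for 4 of the 6 others. LRRC41/UQCRH and NDUFB1/CPSF2 had a peak of 3000 bp or more, and NDUFA11 was in 2 pairs, with gaps of 835 and 866 bp and no summit within 1 kb of both 5′ ends. COX16/ADAM21 and ATP5MJ/TDRD9 had no summit within 1 kb of either 5′ end of the gene models, but the canonical 5′ ends of COX16 (4.98) and ATP5MJ (24.0) had one. ESF1/NDUFAF5 had 34.3, COA5/UNC50 had 29.6 and CCDC127/SDHA, with a succinate dehydrogenase subunit, 24.9. Mitochondrial ribosomal proteins had a member at 17 of 18 pairs (94.4%, 72.7% to 99.9%), with a median of 12.8 (10.7 to 15.5), below that of all pairs. MRPL36/NDUFS6, which joins this list with the preceding one, had 23.5 across a gap of 41 bp. All 7 pairs with a mitochondrial import or chaperonin gene had a member (59.0% to 100%), TOMM70/LNP1 (24.9) the strongest. So had all 3 pairs with an aminoacyl-tRNA synthetase gene (29.2% to 100%). LYRM4/FARS2 had 24.8 there, RARS2/ORC3 9.50 and SARS2/MRPS12 9.47.

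Splicing factor genes had a member at all 16 pairs (79.4% to 100%, which includes the 89.2% of all pairs), with a median of 13.6 (10.4 to 21.8), led by LSM7/SPPL2B (31.7, gap 4 bp), HNRNPK/RMI1 (28.4) and MCRS1/PRPF40B (23.3). Proteasome subunit genes had one at 5 of 6 pairs, with SIRT3/PSMD13 (24.8), PSMA7/SS18L1 (23.8) and PSMA1/PDE3B (22.7). The sixth, PSMB1/TBP, has a gap of 995 bp. It had no summit within 1 kb of both 5′ ends, although TBP had a peak of 16.9. Zinc finger genes had a member at 27 of 31 pairs (median 15.1), with ZSCAN32/ZNF174 highest at 31.8. Pairs of nucleotide synthesis genes had one at 4 of 5, among them TK2/CKLF (13.5), TK1/AFMID (13.3) and DTYMK/ING5 (10.3). The proteasome, zinc finger and nucleotide synthesis intervals (35.9% to 99.6%, 70.2% to 96.4% and 28.4% to 99.5%) include the 89.2% of all pairs.

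A replication-dependent histone gene was present in 12 pairs, of which 8 (66.7%, 34.9% to 90.1%) had a member. The interval includes the 89.2% of all pairs. H3C12/H2BC17 had 27.3, H2AC15/H2BC15 21.6 and H2AC25/H2BC26 19.2. The pairs H2AC1/H2BC1, H3C7/H2BC9, H2BC13/H2AC13 and H2AC14/H2BC14 had no H3K27ac summit within 1 kb of either 5′ end. H2AC1 and H2BC1 are the histone genes of the testis.

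Well-studied divergent pairs showed the range of patterns. NPAT/ATM, a histone gene activator and a DNA damage kinase, had a member on each side, with 9.17 over NPAT and 11.9 over ATM, 406 bp of gap between the 5′ ends and no MYC peak. TK1/AFMID, with thymidine kinase, had 13.3 over TK1 and 4.08 over AFMID. A single member marked TMEM258/FEN1 (146 bp inside the flap endonuclease gene FEN1) and PRKDC/MCM4 (22.0, 173 bp inside PRKDC, the DNA-dependent protein kinase). Of the collagen IV genes of basement membranes, the 2 pairs that met the rule had 1 member each, with 9.12 at COL4A4/COL4A3 and 10.3 at COL4A6/COL4A5. COL4A1/COL4A2 did not qualify, as the gene models overlap at their 5′ ends. PPAT/PAICS, the purine synthesis pair, had a peak of 3037 bp and so was just outside the set. Its summit was 659 bp inside PAICS, with a fold enrichment of 10.9, and 2 MYC peaks overlapped it. Others, such as SURF1/SURF2 and GART/SON, have gene models whose 5′ ends overlap and did not qualify.

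Of the 77 pairs without any H3K27ac peak in reach, 59 (76.6%, 65.6% to 85.5%) had no summit within 1 kb of either 5′ end, and 18 had one near at least 1 of them but none within 1 kb of both. The unmarked pairs, with examples chosen after their values were seen, included GABRA4/GABRB1, subunits of the GABA receptor of neurons, and DUOX2/DUOXA2, the thyroid oxidase and its maturation factor. OR11A1/OR2H1 are olfactory receptors and PLCZ1/CAPZA3 are sperm genes. These counts hold for the 5′ ends of gene models, which can lie outside the promoter in use. Of the 59 pairs, 23 (39.0%, 26.5% to 52.6%) had an H3K27ac summit within 1 kb of the 5′ end of a canonical transcript. Among these were ACLY (15.7), the citrate lyase of acetyl-CoA synthesis, UHRF1 (16.1), a factor of DNA methylation maintenance, and GINS3 (6.82), a part of the replicative helicase. The neuronal, thyroid, olfactory and sperm pairs above had none there either. The same was true of CLCN2/POLR2H, with the gene of an RNA polymerase subunit, PEX11A/WDR93 and LCMT2/ADAL. The tissue-restricted examples therefore do not stand for all unmarked pairs.

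MYC peaks overlapped 63 of the 1063 members (5.93%, 4.58% to 7.52%), by at least 1 bp, against 0.882% of all H3K27ac peaks. Single promoters had a MYC peak in 3.57% (3.26% to 3.91%), lncRNA promoters in 1.74%, and peaks farther from these 5′ ends in 0.240%. The lncRNA and farther peaks, like all H3K27ac peaks, had no width limit. Wide H3K27ac peaks overlapped MYC more often at both divergent and single promoters. Among peaks 2000 to 3000 bp wide the share was 15.7% (9.45% to 24.0%) for divergent and 10.5% (8.73% to 12.5%) for single promoters, and under 500 bp it was 0.985% and 0.385%. By fold enrichment, the shares were 0% (0% to 3.69%) for the 98 members under 5, 7.11% at 10 to 15 and 8.81% at 20 to 30, and at single promoters 0.151%, 4.20% and 5.43%. Divergent promoters had the lower share under 5, and again over 30, with 4.76% (3 of 63) against 5.44% for single promoters. These bins held only 98 and 63 divergent peaks. In the other bins of enrichment and in every bin of width, the divergent share was the higher. Within every bin of enrichment and width the intervals of divergent and single promoters overlapped. Counted per gene with an H3K27ac summit in its first 500 bp, a MYC summit lay in the same stretch of 42 of 992 divergent 5′ ends (4.23%, 3.07% to 5.68%) and 193 of 6499 isolated ones (2.97%, 2.57% to 3.41%). With only MYC peaks of −log10 q of at least 10, 24 members (2.26%, 1.45% to 3.34%) were overlapped, beside 1.13% (0.955% to 1.33%) of single promoters and 0.295% of all H3K27ac peaks.

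**Figure D5:**
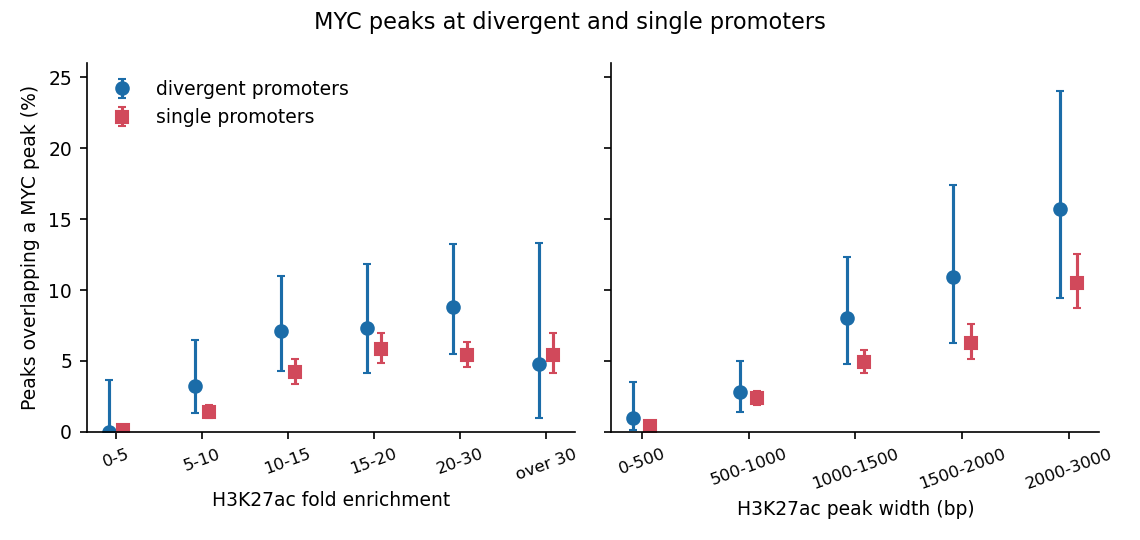
Percent of H3K27ac peaks that overlap a MYC peak (vertical axis) by H3K27ac fold enrichment (left) and by peak width in bp (right), for divergent and single promoters, with 95% Clopper-Pearson bars. Both classes rise with width, to 15.7% and 10.5% in the widest bin, and the bars of the 2 classes overlap in every bin.

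MYC summits took one side of the pair, like those of H3K27ac. The 63 MYC peaks at members had 4 summits between the 5′ ends (6.35%, 1.76% to 15.5%), 30 over the minus-strand gene and 29 over the plus-strand gene. Outside the gap they lay a median of 177 bp (140 to 228) into the gene. With canonical 5′ ends 20% of MYC summits (16 of 80) were between, and with overlapping pairs added 17.0%. Annotated exons of protein-coding genes held 47 of the 63 MYC summits (74.6%), and 49 of the 63 H3K27ac summits of the overlapped members (77.8%, 65.5% to 87.3%), beside 621 of the 1063 summits of all members (58.4%, 55.4% to 61.4%). CACGTG lay within 50 bp of 14 MYC summits (22.2%, 12.7% to 34.5%). Without the share over all MYC peaks, this value is not read as high or low. The letters were in the gap of 8 of 62 pairs with MYC (12.9%, 5.74% to 23.9%) and 53 of 690 without (7.68%, 5.81% to 9.93%).

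The strongest MYC peak at a member, chr20:17949068-17949530, had a fold enrichment of 14.3 (rank 17 of 1723) and a summit in an exon of SNX5, an endosomal sorting gene, with CACGTG within 50 bp. Its H3K27ac peak spanned 2647 bp with 23.9. RPL35/ARPC5L had a MYC peak of 12.2 at chr9:127623933-127624240, 163 bp inside the ribosomal protein gene. SRSF7/GEMIN6, a splicing factor and a gene of the SMN complex, had 12.2 at chr2:38978025-38978444, with the MYC and H3K27ac summits 11 bp apart. RPS25/TRAPPC4 had 11.6 and HNRNPK/RMI1 10.2. At the last of these the MYC summit was inside HNRNPK and the H3K27ac summit inside RMI1, a gene of genome stability, 1320 bp away. At 4 of these 5 peaks no CACGTG lay within 50 bp of the MYC summit. ALG3/EEF1AKMT4, a glycosylation enzyme beside a methyltransferase gene, had its MYC summit in the gap 59 bp from a 5′ end (7.30). TAF5L/URB2, a subunit gene of the SAGA-type acetyltransferase complex beside one of ribosome biogenesis, had it 12 bp from one (4.48).

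Ribosomal protein pairs carried MYC at most of their promoters. Of 11 pairs with a cytosolic ribosomal protein gene, all had a member and 9 (81.8%, 48.2% to 97.7%) a MYC peak over a member assigned to them, beside 62 of 752 among all pairs (8.24%, 6.38% to 10.4%) and 53 of 741 (7.15%) without these genes. At single promoters of the same list, 43 of 64 genes (67.2%, 54.3% to 78.4%) had one. The MYC summit was on the side of the ribosomal protein gene at 8 of the 9 pairs. These were RPL35, RPS25, RPS18 (8.87, partner VPS52), RPL7A (6.80, partner MED22), RPS16 (5.91, partner SUPT5H), RPL9 (5.85, partner LIAS), RPL18 (5.70, partner SPHK2) and RPL12 (4.19, partner LRSAM1). At PIDD1/RPLP2 the summit lay 182 bp inside PIDD1, with 4.69. TRIM66/RPL27A had no MYC peak over its member. BTK/RPL36A had none over the member assigned to it, but the member assigned to its readthrough pair BTK/RPL36A-HNRNPH2 was also in its reach and had a MYC peak of 8.65. Counting any member in reach, 10 of the 11 pairs (90.9%, 58.7% to 99.8%) had MYC. The list goes by gene symbols and misses FAU/MRPL49 and RPL36AL/MGAT2, which had members without a MYC peak. The strongest H3K27ac member was on the side of the MYC summit at 6 of the 9 pairs (66.7%, 29.9% to 92.5%). Among the others, that of RPL9/LIAS was over LIAS (23.5) and that of VPS52/RPS18 over VPS52 (14.5).

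Splicing factor genes had MYC at 5 of 16 pairs (31.2%, 11.0% to 58.7%), and all 6 MYC summits there were on the side of the splicing factor gene. At single promoters of the same list, 8 of 61 genes (13.1%, 5.84% to 24.2%) had a MYC peak. None of 17 mitochondrial ribosomal protein pairs (0% to 19.5%) and none of 8 histone pairs with a member (0% to 36.9%) had one. Both intervals include the 8.24% of all pairs, and the first overlaps that of the splicing factor pairs. Replication and repair genes had it at 2 of 29 pairs, with PMS2/AIMP2 at 9.28 over AIMP2. Single examples of MYC summits inside genes of ribosome assembly, for which no list was counted and which were chosen after their values were seen, were BOP1 (9.92, partner HSF1), PNO1 (8.02), BYSL (7.77) and IMP4 (6.68).

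The 5′ ends of pairs with a member were rich in CpG and in letters of a few factors, in windows from 250 bp before to 50 bp after. The 1518 windows had a median GC content of 65.1% and a CpG ratio of observed to expected of 0.891 (0.881 to 0.897), beside 0.819 (0.814 to 0.824) at 8486 isolated 5′ ends with an H3K27ac peak and 0.694 over all 20163. ETS letters (CCGGAAG on either strand) were in 28.6% (26.3% to 30.9%) of windows at pairs with a member, 15.3% (14.5% to 16.1%) at isolated promoters with a peak and 11.8% of all. NRF1 letters were in 9.82% (8.36% to 11.4%), 4.91% and 3.76%, and YY1 letters (AAGATGG) in 9.09% (7.69% to 10.7%), 5.75% and 5.64%. The windows of both genes of a pair overlap when the gap is short, so 1 match can be counted at both. Such a window also takes in the 5′ end of the partner gene, while an isolated window holds 1 protein-coding 5′ end. The shares at divergent and isolated 5′ ends are therefore not like for like. CACGTG was in 10.7% (9.22% to 12.4%), 9.84% and 8.34%. GC box letters (GGGCGG) were in 74.9%, 69.9% and 52.2%, CCAAT in 40.6%, 35.2% and 35.8%, and TATAAA in 4.68%, 6.17% and 10.9%. At the 185 5′ ends of pairs without a member, ETS letters were in 18.9% (13.5% to 25.3%), NRF1 letters in 0.541% and TATAAA in 8.11%, with a CpG ratio of 0.714. A match shows only that the letters are present.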

How the data were processed

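ChIP-seq libraries of wild-type HAP1 cells for MYC, H3K27ac, rIgG and Input (1 each) were processed by the authors with bcl2fastq (2.20), bowtie2 (2.2.4) on hg19 and MACS2 (2.1.1) with default parameters. How duplicate reads were treated before peak calling is not stated. The fold enrichment, a ratio over the control at the summit, and the −log10 p and −log10 q were computed by the authors with MACS2. The score deposited by the authors restates −log10 q and was not used. Peak lists carry no read totals. The study gives the mapped reads of each library, but depth was not used here. Signal below the calling threshold is absent from such lists.

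Gene 5′ ends came from gene lines of GENCODE release 44 lifted to GRCh37, and sequences from GRCh37. Python (3.11.15) with numpy (2.4.6), scipy (1.17.1), pandas (2.3.3), pysam (0.24.0), matplotlib (3.10.9) and samtools (1.23.1) were used. The calculations were tested on simulated data. Members and lists were chosen with earlier results of these data known. Named by rule were the 5 members with the highest and the 3 with the lowest fold enrichment, the 5 under the strongest MYC peaks, peaks at the limits, textbook pairs and up to 3 pairs of each gene list. Alternatives changed the gap, 5′ ends, width, summit distance, thresholds and overlap.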

Additional observations from a re-analysis of the deposited data

How the results depend on the processing

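No paired analysis was possible because each antibody had 1 library. Of 45 values recomputed under alternatives, 32 moved by less than the 95% interval of the reported value, or by under 1.5 times for the number of members, which ranged from 719 (summit within 500 bp of both 5′ ends) to 1568 (overlapping pairs added). The share of pairs with a member became 91.7% with gaps of at most 500 bp, 86.9% with H3K27ac peaks of −log10 q of at least 10, 91.3% without a width limit and 69.9% with summits within 500 bp. The share of summits between the 5′ ends became 2.17% with gaps of at most 500 bp, 7.23% with canonical 5′ ends and 18.8% with overlapping pairs. The median fold enrichment became 15.1 with canonical 5′ ends, 15.1 with the stricter H3K27ac peaks and 16.9 with 1 peak per pair. The share of members with MYC became 2.26% with the stricter MYC peaks. The share of MYC summits between the 5′ ends became 20% with canonical 5′ ends and 17.0% with overlapping pairs. The stricter peaks and shorter limits leave fewer peaks by construction. The cause of the other changes was not tested. With 1 library per antibody, the spread between experiments is unknown, and the depth of the libraries was not used here.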
